A study of Drosophila melanogaster with 11 samples.

Results

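The expression of the core cell death genes was followed in whole Drosophila melanogaster embryos by bulk mRNA-seq. The genes were the activators rpr, hid, grim and skl, the inhibitor Diap1, the initiator caspase Dronc, its adaptor Dark and the effector caspases Drice and Dcp-1. They were found by their gene symbols, which matched 9 of the 17753 genes in the expression files, and all 9 passed the filter on low counts in every test. The embryos were of the wild-type strain Oregon-R, with no transgene or treatment named in the labels, collected 2–4 h, 14–14.5 h, 14–17 h or 17–17.5 h after egg deposition. The windows had 3, 2, 4 and 2 libraries in this order. Each library came from a collection of pooled embryos with all of their tissues, so fewer cells of a type and less RNA per cell cannot be told apart in any of the values given here.

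In flies, most developmental cell death is started by transcription of small activator proteins. These bind DIAP1, a ubiquitin ligase that holds caspases inactive, and thereby release the initiator caspase Dronc. Dronc is assembled on Dark, the fly counterpart of Apaf-1, and cleaves the effector caspases Drice and Dcp-1, which take the cell apart. In the embryo this removes surplus cells of the nervous system, the head and the epidermis after gastrulation.

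The activators are neighbours on chromosome arm 3L of the dm6 genome, all on the minus strand. hid (FBgn0003997) lies at 18167745 to 18185641, grim (FBgn0015946) at 18302719 to 18304417, rpr (FBgn0011706) at 18397535 to 18398435 and skl (FBgn0036786) at 18438561 to 18439942. The gaps between them measure 117077, 93117 and 40125 bp. Diap1 (FBgn0260635) and Dronc (FBgn0026404) are on the same arm, at 16038410 to 16051034 and 9968479 to 9971002. Drice (FBgn0019972) is on 3R at 29799658 to 29801584, and Dark (FBgn0263864) and Dcp-1 (FBgn0010501) are on 2R at 17020027 to 17026703 and 23551313 to 23553547. rpr, grim, skl and Drice are each annotated as 1 exonic block, whereas exons make up 22.5% of the span of hid and 24.9% of that of Diap1.

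Total estimated counts per library were between 14472809, in replicate 2 at 2–4 h, and 38904916. In that shallowest library 3 counts correspond to 0.207 CPM (estimated counts scaled to the library total), and every cell death gene stood above this in every library. The libraries fell into 2 sets that do not follow developmental time. Mitochondrial mt:lrRNA took 10.02% to 14.8% of all TPM (the deposited level, scaled to gene length and library total) at 2–4 h and 14–17 h, and 5.89% to 6.49% in the narrow windows, 14–14.5 h and 17–17.5 h. The methods name 2 sequencer models without saying which library ran on which. Comparisons between a narrow window and 2–4 h or 14–17 h cross these sets, and there the set and the window cannot be told apart. The comparisons of 14–17 h with 2–4 h and of 17–17.5 h with 14–14.5 h stay within a set. Markers set 2–4 h apart from the later windows: 7 genes of the early embryo (bcd, nanos, zen, eve, ftz, sna and twi) summed to between 42.8 and 68.6 TPM in the later windows, against 559.7 to 663 TPM at 2–4 h, and 3 muscle genes (Mhc, Mlc2 and wupA) to between 4281 and 5142 TPM, against 8.09 to 28.5 TPM. The muscle sums did not separate the narrow windows. Those of 14–14.5 h (4281 to 4446 TPM) and 17–17.5 h (4286 to 4741 TPM) overlapped. Glial sums (repo and moody) were 57.3 to 58.1 TPM at 14–14.5 h. They were 38.4 to 49.0 TPM at 14–17 h and 26.8 to 28.4 TPM at 17–17.5 h. The sums of epidermis and trachea and of haemocyte markers, named below, fell in the same order without overlap. Neuronal sums were lowest at 14–17 h, and the early embryo sums of 14–14.5 h and 14–17 h overlapped. Whether any of these sums follows age among the later windows was not tested.

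The spans of 4 of the 9 genes overlap other annotated genes, between which kallisto, the counting tool, divides shared reads. The files give each gene the length of its whole span, and whether the counting used the strand is not stated. Dcp-1 lies wholly inside the span of pita, a zinc finger protein gene on the opposite strand. grim contains the spans of asRNA:CR45974 and lncRNA:CR45975, and Dark shares 3052 bp with asRNA:CR44390. Diap1 overlaps lncRNA:CR43951 and asRNA:CR45889, which both had 0 counts in every library. The division was not the same in all windows: Dark held between 72.1% and 78.8% of its sum with asRNA:CR44390 at 2–4 h and 14–17 h, and between 98.0% and 100% of it in the narrow windows. Each comparison was therefore also run with the counts of overlapping genes added to those of the cell death gene, an alternative chosen after the data were seen.

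**Figure D1:**
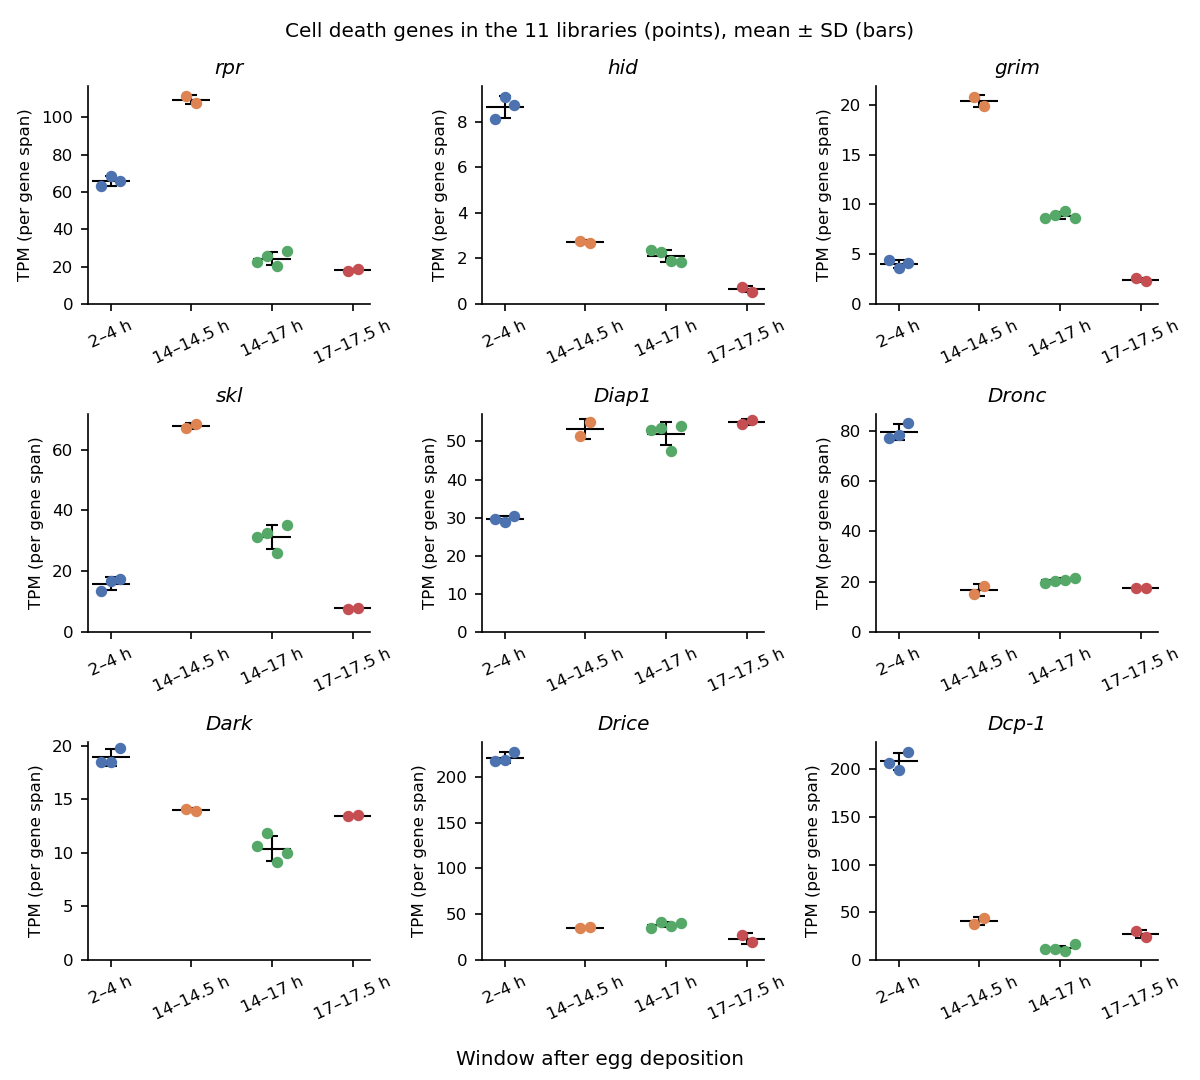
TPM (per gene span, vertical axes from 0) of each cell death gene in each of the 11 libraries (points), by window after egg deposition, with the mean and SD of each window (black bars). rpr, grim and skl stood highest at 14–14.5 h (means of 109.6, 20.4 and 67.7 TPM), hid, Dronc, Dark, Drice and Dcp-1 at 2–4 h, and Diap1 was lowest at 2–4 h (29.7 TPM).

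The activators followed 2 courses. rpr, grim and skl were higher at 14–14.5 h than at 2–4 h and lower again at 17–17.5 h, whereas hid had its highest level at 2–4 h and was lower in each later window. rpr (reaper) encodes the activator first known for its effect on cell death in the embryo. In the 3 libraries at 2–4 h it had 63.3, 68.4 and 65.7 TPM, at 14–14.5 h 111 and 108 TPM, at 14–17 h 22.3, 25.5, 20.4 and 28.3 TPM, and at 17–17.5 h 17.3 and 18.6 TPM. No window overlapped another for rpr on this scale, and both 14–14.5 h libraries lay above all others. rpr was 1.65-fold higher at 14–14.5 h than at 2–4 h (log2 fold change 0.72 ± 0.10 SE, edgeR adjusted p = 1.1e-04). At 17–17.5 h it was 5.27-fold lower than at 14–14.5 h (-2.40 ± 0.09, edgeR adjusted p = 5.9e-06), although only 3 h separate the starts of these windows.

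grim and skl (sickle) encode activators with the same DIAP1-binding motif at their amino end. grim had 4.42, 3.58 and 4.08 TPM at 2–4 h, 20.8 and 19.95 TPM at 14–14.5 h, 8.60, 8.90, 9.35 and 8.62 TPM at 14–17 h, and 2.56 and 2.25 TPM at 17–17.5 h. skl had 13.4, 16.7 and 17.3 TPM at 2–4 h, 67.0 and 68.4 TPM at 14–14.5 h, 31.3, 32.7, 25.9 and 35.2 TPM at 14–17 h, and 7.60 and 7.79 TPM at 17–17.5 h. Both genes thus had the order 14–14.5 h, 14–17 h, 2–4 h and 17–17.5 h, with no overlap between windows. At 14–14.5 h grim was 4.89-fold and skl 4.24-fold higher than at 2–4 h (log2 fold changes 2.29 ± 0.17 and 2.09 ± 0.12, edgeR adjusted p = 2.3e-06 and 4.1e-07). At 17–17.5 h grim was 7.32-fold and skl 7.59-fold lower than at 14–14.5 h (-2.87 ± 0.13 and -2.92 ± 0.08, edgeR adjusted p = 1.3e-05 and 2.8e-06). grim has few counts, 35 to 89 at 2–4 h and 405 to 437 at 14–14.5 h. With its overlapping RNAs added, its change was 2.77 at 14–14.5 h over 2–4 h and -2.84 at 17–17.5 h over 14–14.5 h on the log2 scale.

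hid (head involution defective), whose protein is also known to be restrained by growth factor signalling, went a different way. It had 8.125, 9.09 and 8.72 TPM at 2–4 h, 2.76 and 2.65 TPM at 14–14.5 h, 2.35, 2.30, 1.86 and 1.84 TPM at 14–17 h, and 0.732 and 0.537 TPM at 17–17.5 h. Every 2–4 h library was above every later one, and both 17–17.5 h libraries were below all others. hid was 3.22-fold lower at 14–14.5 h than at 2–4 h (log2 fold change -1.69 ± 0.10, edgeR adjusted p = 4.9e-07) and 10.5-fold lower at 17–17.5 h than at 2–4 h (-3.39 ± 0.14, edgeR adjusted p = 1.1e-06). As TPM ratios these changes were -1.67 and -3.77 (log2). Between the narrow windows it was 3.69-fold lower at 17–17.5 h than at 14–14.5 h (-1.88 ± 0.14, edgeR adjusted p = 9.0e-05). Its counts were still between 132 and 183 at 17–17.5 h.

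All 4 activators were therefore called lower at 17–17.5 h than at 14–14.5 h, where 31.5% of all genes tested were called lower and 32% higher. In the same comparison the markers of epidermis and trachea (Osi20, grh and btl) summed to 11.5 to 29.5 TPM at 17–17.5 h, against 1431 to 1524 TPM at 14–14.5 h, and none of the 3 was at 0 throughout a window. Nearly all of this sum at 14–14.5 h was Osi20, with 0.191 and 18.8 TPM at 17–17.5 h, against 1419 and 1511 TPM at 14–14.5 h. btl averaged 1.05 ± 0.04 TPM at 17–17.5 h and 4.21 ± 0.15 TPM at 14–14.5 h, while grh went the other way, with 9.95 ± 0.44 and 8.04 ± 0.11 TPM (SD, n = 2 each). Neuronal markers (elav, nSyb, brp and Syt1) summed to 312 TPM in both 17–17.5 h libraries, against 277 and 293 TPM at 14–14.5 h, but did not move together. At 17–17.5 h and at 14–14.5 h, nSyb averaged 200.2 ± 1.2 and 154.7 ± 3.6 TPM and Syt1 48.9 ± 0.9 and 40.4 ± 1.7 TPM, brp 33.99 ± 0.01 and 34.4 ± 2.0 TPM, and elav, on the other side, 28.5 ± 2.1 and 55.8 ± 3.8 TPM. The part of these tissues in the fall of the activators was not tested.

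Diap1, the inhibitor, was the only one of the 9 genes called higher in all 3 comparisons with 2–4 h, which share the 2–4 h libraries. Of all genes tested, 46.7% were called higher at 14–14.5 h, 48.2% at 14–17 h and 49.2% at 17–17.5 h. It had 29.8, 29.0 and 30.5 TPM at 2–4 h, 51.4 and 55.1 TPM at 14–14.5 h, 52.98, 53.6, 47.6 and 54.1 TPM at 14–17 h, and 54.6 and 55.6 TPM at 17–17.5 h. All later libraries were above all 2–4 h libraries, and the 14–17 h libraries overlapped those of 14–14.5 h. Its log2 fold change over 2–4 h was 0.82 ± 0.11 at 14–14.5 h, 0.80 ± 0.09 at 14–17 h and 1.27 ± 0.05 at 17–17.5 h (edgeR adjusted p = 8.7e-05, 9.2e-06 and 1.2e-06). As TPM ratios these changes were 0.84, 0.81 and 0.89 (log2), so the larger rise at 17–17.5 h depended on the scaling. For 17–17.5 h over 2–4 h, TPM ratios of all genes tested lay a median of 0.38 below the edgeR values. Between the narrow windows Diap1 was called higher at 17–17.5 h (0.26 ± 0.07, edgeR adjusted p = 0.016), but the call was lost without replicate 1 of 14–14.5 h (adjusted p = 0.095). On the TPM scale that change was 0.05 (log2), in a comparison where TPM ratios of all genes tested lay a median of 0.21 below the edgeR values.

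Dronc, the initiator caspase, was high only at 2–4 h. It had 77.2, 78.6 and 83.3 TPM at 2–4 h, 15.1 and 18.3 TPM at 14–14.5 h, 19.5, 20.4, 20.4 and 21.6 TPM at 14–17 h, and 17.3 TPM in both libraries at 17–17.5 h. The lowest 2–4 h library was above the highest later library by more than the whole spread among the later ones. Dronc was 4.83-fold lower at 14–14.5 h, 3.91-fold lower at 14–17 h and 3.54-fold lower at 17–17.5 h than at 2–4 h (log2 fold changes -2.27 ± 0.12, -1.97 ± 0.09 and -1.82 ± 0.07, edgeR adjusted p = 2.9e-07, 1.2e-08 and 6.9e-07). No difference between 17–17.5 h and 14–14.5 h was called (0.26 ± 0.11, edgeR adjusted p = 0.075), although it passed with relative log expression (RLE) scaling factors in place of edgeR's default ones (adjusted p = 0.045) and without replicate 2 of 14–14.5 h (adjusted p = 0.03).

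Dark, which scaffolds Dronc activation, differed less between windows than Dronc. It had 18.5, 18.4 and 19.8 TPM at 2–4 h, 14.1 and 13.9 TPM at 14–14.5 h, 10.6, 11.8, 9.12 and 9.99 TPM at 14–17 h, and 13.4 and 13.5 TPM at 17–17.5 h. All 2–4 h libraries were above all later ones, and the 14–17 h libraries were lowest. Dark was called lower at 14–14.5 h and 14–17 h than at 2–4 h (log2 fold changes -0.45 ± 0.10 and -0.88 ± 0.09, edgeR adjusted p = 0.003 and 6.0e-06) but not at 17–17.5 h (-0.11 ± 0.07, edgeR adjusted p = 0.16). The call at 14–14.5 h was lost when replicate numbers were added to the fit (-0.41, edgeR adjusted p = 0.05). With asRNA:CR44390 added, the change over 2–4 h was -0.87 at 14–14.5 h, -0.94 at 14–17 h and -0.53 at 17–17.5 h, and all of these passed the test (edgeR adjusted p = 5.4e-05, 1.9e-06 and 9.8e-05). The low Dark level at 14–17 h against 14–14.5 h (-0.49 ± 0.08, edgeR adjusted p = 0.0016) became -0.14 with that RNA added and was no longer called (adjusted p = 0.15).

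The effector caspases Drice and Dcp-1 were the most abundant of the 9 genes at 2–4 h and lower in every later window. Drice had 217, 218 and 228 TPM at 2–4 h, 35.1 and 35.4 TPM at 14–14.5 h, 35.0, 41.2, 37.1 and 40.4 TPM at 14–17 h, and 27.2 and 19.0 TPM at 17–17.5 h. Dcp-1 had 207, 199.7 and 218 TPM at 2–4 h, 37.5 and 43.8 TPM at 14–14.5 h, 11.5, 11.6, 8.79 and 16.1 TPM at 14–17 h, and 29.9 and 23.9 TPM at 17–17.5 h. For both genes all 2–4 h libraries were several times above all later ones. Drice was 6.33-fold lower at 14–14.5 h, 5.77-fold lower at 14–17 h and 7.36-fold lower at 17–17.5 h than at 2–4 h (log2 fold changes -2.66 ± 0.11, -2.53 ± 0.09 and -2.88 ± 0.13, edgeR adjusted p = 7.1e-08, 2.2e-09 and 1.5e-06). For 17–17.5 h over 2–4 h the TPM ratio was -3.26 for Drice and -2.95 for Dcp-1 (log2). Dcp-1 was 5.19-fold, 17.4-fold and 5.95-fold lower at 14–14.5 h, 14–17 h and 17–17.5 h than at 2–4 h (-2.38 ± 0.13, -4.12 ± 0.18 and -2.57 ± 0.09, edgeR adjusted p = 2.7e-07, 8.2e-09 and 4.1e-07).

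The low point of Dcp-1 at 14–17 h was not seen in its sum with pita. Dcp-1 held between 9.62% and 16.1% of the counts of the pair at 14–17 h, against 40.2% and 47.2% in the 14–14.5 h libraries, 31.3% and 29.3% in those of 17–17.5 h and at least 46.7% at 2–4 h. The pair together had between 71.6 and 88.9 CPM at 14–17 h, 78.6 and 78.3 CPM at 14–14.5 h and 84.5 and 72.4 CPM at 17–17.5 h, so that these windows overlapped. At 2–4 h the pair had 391, 370 and 401 CPM (all before normalization factors). As a sum, Dcp-1 and pita were lower at 14–17 h than at 2–4 h by a log2 fold change of -2.20 ± 0.10, close to -2.25 ± 0.13 at 14–14.5 h and -1.92 ± 0.07 at 17–17.5 h (edgeR adjusted p = 1.5e-08, 4.6e-07 and 6.1e-07). For 14–17 h over 14–14.5 h the change was -0.01 ± 0.09 for the sum (adjusted p = 0.9), against -1.81 ± 0.19 for Dcp-1 alone (adjusted p = 1.6e-04, both edgeR).

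**Figure D2:**
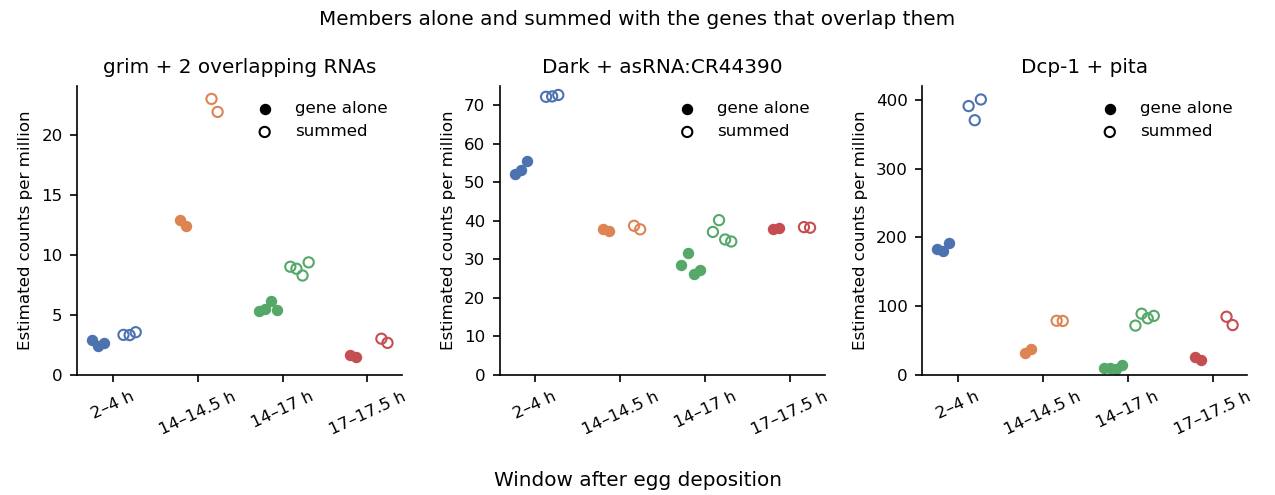
CPM (vertical axes from 0, no normalization factors) of grim, Dark and Dcp-1 alone (filled points) and summed with the genes whose span overlaps them (open points), 1 point per library, by window. For Dcp-1 the filled points of 14–17 h lie below those of both narrow windows, while the open points of the 3 later windows overlap.

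Counted over the members, 3 were called higher and 6 lower at 14–17 h than at 2–4 h, where 90.6% of all genes tested were called (48.2% higher and 42.4% lower). The members called higher were grim, skl and Diap1, and the median log2 fold change of the 9 genes was -1.45, against 0.19 over all genes tested. At 14–14.5 h, 4 were called higher and 5 lower than at 2–4 h, with 90% of all genes called (46.7% higher and 43.3% lower), medians of -0.45 and 0.11. Here rpr joined the genes called higher. At 17–17.5 h only Diap1 was called higher than at 2–4 h and 6 genes were called lower, with 91.4% of all genes called (49.2% higher and 42.3% lower), medians of -1.49 and 0.27. These 3 comparisons share the 2–4 h libraries, and since nearly all genes were called in them, a call by itself is no result about the cell death genes.

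rpr changed direction between these comparisons: it was higher at 14–14.5 h than at 2–4 h but lower at 14–17 h (-1.45 ± 0.12, edgeR adjusted p = 1.2e-06) and at 17–17.5 h (-1.49 ± 0.11, edgeR adjusted p = 1.8e-05). grim and skl were 2.15-fold and 1.97-fold higher at 14–17 h than at 2–4 h (log2 fold changes 1.10 ± 0.16 and 0.98 ± 0.13, edgeR adjusted p = 8.1e-05 and 4.7e-05). At 17–17.5 h skl was 1.57-fold lower than at 2–4 h (-0.65 ± 0.17, edgeR adjusted p = 0.0097), a call that was lost without replicate 1 of 17–17.5 h (adjusted p = 0.076). grim was not called there (-0.38 ± 0.20, edgeR adjusted p = 0.12). Its value depended on the scaling: the edgeR fit of 17–17.5 h over 2–4 h placed all genes tested higher than a fit of all 11 libraries did, by a median of 0.20 (log2). In that fit grim was called lower (-0.59, edgeR adjusted p = 0.0062), as it was without the shallow replicate 2 of 2–4 h (-0.67, edgeR adjusted p = 0.021), while with its overlapping RNAs added it was at 0.12 (edgeR adjusted p = 0.5). Dark behaved likewise, with -0.30 in the fit of all 11 libraries (edgeR adjusted p = 0.0086) and -0.35 without replicate 2 of 2–4 h (adjusted p = 0.0051).

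Between the narrow windows, 1 gene was called higher and 5 lower at 17–17.5 h than at 14–14.5 h, where 63.6% of all genes tested were called. The median log2 fold change was -0.40 over the 9 genes and -0.04 over all genes tested. The 4 activators were among the genes called lower, with the values given above. Dcp-1 was the other gene called lower (-0.38 ± 0.11, edgeR adjusted p = 0.025), but the sum of Dcp-1 and pita was at 0.14 ± 0.07 (edgeR adjusted p = 0.11). That call was also lost without replicate 2 of 14–14.5 h (edgeR adjusted p = 0.15), without replicate 2 of 17–17.5 h (adjusted p = 0.077) and in the fit of all 11 libraries (adjusted p = 0.15). Drice just missed the threshold (-0.40 ± 0.14, edgeR adjusted p = 0.051) and passed it with RLE factors (edgeR adjusted p = 0.04), in the fit of all 11 libraries (adjusted p = 0.025), with DESeq2 (adjusted p = 0.046) and without replicate 1 of 17–17.5 h (-0.61, edgeR adjusted p = 0.0016). Dark also missed it (0.16 ± 0.06, edgeR adjusted p = 0.055) and passed with RLE factors (adjusted p = 0.041) and without replicate 1 of 17–17.5 h (adjusted p = 0.039), but its TPM ratio had the opposite sign (-0.05, log2). A single test over all 4 windows called all 9 genes (edgeR adjusted p between 1.5e-10 and 1.5e-06), as it did 96.7% of all genes tested.

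**Figure D3:**
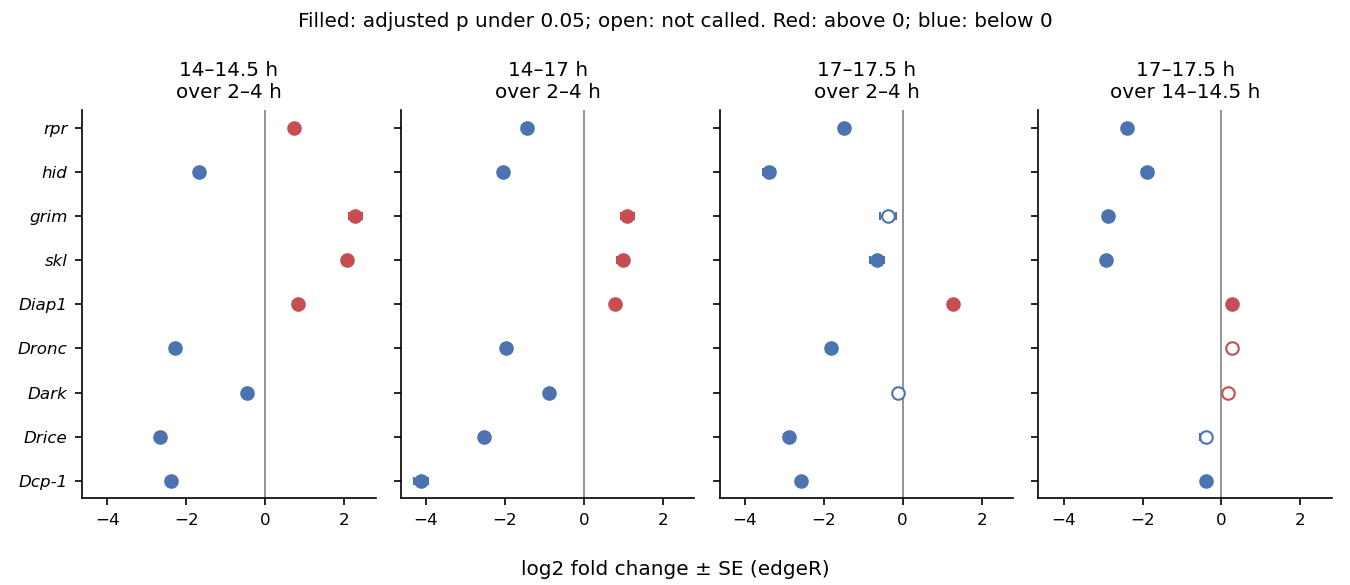
log2 fold change (horizontal axis, edgeR) of each cell death gene in the 4 pairwise comparisons, the later window over the earlier one, with the SE as error bars. Filled points passed an adjusted p of 0.05 and open points did not. In the panel of 17–17.5 h over 14–14.5 h the 4 activators lie between -2.92 and -1.88 and the other 5 genes between -0.40 and 0.26.

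The broad window of 14–17 h contains the ages of 14–14.5 h and ends where 17–17.5 h begins. It was set beside both narrow windows with fits chosen after the data were seen. By mean normalized CPM, 5 of the 9 genes lay between the narrow windows at 14–17 h (the 4 activators and Dronc), 3 lay below them (Diap1, Dark and Dcp-1) and 1 above (Drice), against 42%, 28% and 30% of all genes tested. All 4 activators were lower at 14–17 h than at 14–14.5 h, where 59% of all genes were called and 28.5% were lower. The change was -2.24 ± 0.12 for rpr, -0.43 ± 0.11 for hid, -1.26 ± 0.10 for grim and -1.17 ± 0.11 for skl (log2, edgeR adjusted p = 1.5e-05, 0.0086, 5.4e-05 and 8.6e-05). The call of hid was lost without replicate 1 of 14–14.5 h (edgeR adjusted p = 0.079). Against 17–17.5 h, where 64% of all genes were called and 32.3% were higher, hid, grim and skl were higher at 14–17 h by 1.49 ± 0.15, 1.65 ± 0.15 and 1.79 ± 0.14 (edgeR adjusted p = 1.1e-04, 6.8e-05 and 3.8e-05). rpr was not called there (0.19 ± 0.15, edgeR adjusted p = 0.31). The level of rpr at 14–17 h thus lay next to that of 17–17.5 h, and that of hid next to 14–14.5 h, while grim and skl were in between. These comparisons share the 14–17 h libraries and cross the sets of libraries named above.

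To compare genes with each other, levels were recomputed from the deposited counts per exon length. This length leaves out introns, but any reads that fell in introns stay in the counts. That limits hid and Diap1 most, where exons make up 22.5% and 24.9% of the span. At 2–4 h Dcp-1 was highest with 194 ± 6.91 exon TPM (SD), followed by Drice with 156 ± 3.52, Diap1 with 88.8 ± 1.44, Dronc with 72.2 ± 2.63, rpr with 46.6 ± 2.26, hid with 28.4 ± 1.83, Dark with 18.5 ± 0.637, skl with 11.2 ± 1.5 and grim with 2.85 ± 0.275 (n = 3). No neighbours in this order overlapped at 2–4 h. At 14–14.5 h Diap1 was highest with 152 ± 6.28 exon TPM, then rpr with 74.1 ± 2.32, skl with 45.8 ± 0.299, Dcp-1 with 36.1 ± 3.67 and Drice with 23.9 ± 0.0368 (n = 2). Below these, Dronc, grim, Dark and hid had means between 8.49 and 14.5 exon TPM, and Dronc and grim overlapped. At 14–17 h Diap1 had 149.6 ± 8.53 exon TPM (n = 4) and Drice, the next, 26.2 ± 1.97, with each gene from Drice down to Dcp-1 overlapping its next neighbour, and hid overlapping grim at the low end. At 17–17.5 h Diap1 had 159 ± 1.995 exon TPM and Dcp-1, the next, 24.1 ± 3.81, whereas skl, hid and grim were lowest with 5.25 ± 0.0916, 2.00 ± 0.436 and 1.64 ± 0.15 (n = 2), hid and grim overlapping. Caspases thus led at 2–4 h and the inhibitor in every later window.

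The summed activators were set against Diap1 as a description of their balance, with no test. In exon TPM the activators summed to 83.7, 93.7 and 89.5 at 2–4 h and to 144 and 140.2 at 14–14.5 h. They summed to 49.6, 52.5, 43.9 and 55.4 in the 14–17 h libraries and to 21.1 and 21.2 in those of 17–17.5 h. Their ratio to Diap1 was 1.002 ± 0.0632 at 2–4 h (SD, n = 3), 0.937 ± 0.0575 at 14–14.5 h (n = 2), 0.336 ± 0.0152 at 14–17 h (n = 4) and 0.133 ± 0.00109 at 17–17.5 h (n = 2). Per gene span it was 3.17 ± 0.191, 3.77 ± 0.228, 1.27 ± 0.0740 and 0.521 ± 0.00501 in the same order. The ratio was lowest at 17–17.5 h and next lowest at 14–17 h on both scales, without overlap, while the order of 2–4 h and 14–14.5 h depended on the length used.

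**Figure D4:**
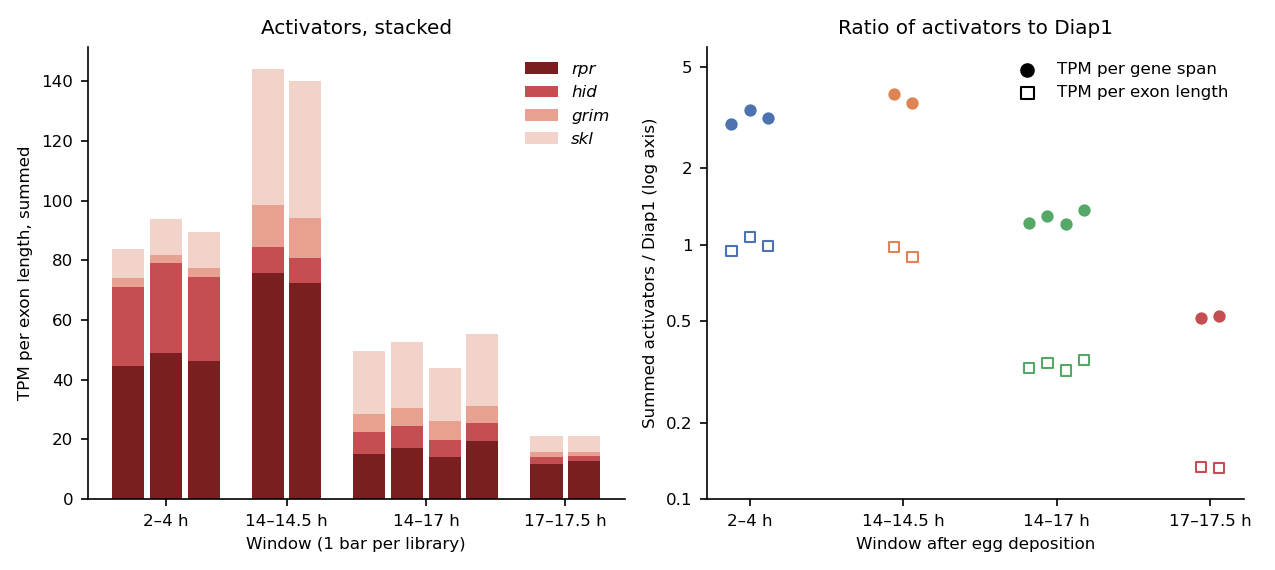
Left, exon TPM of rpr, hid, grim and skl stacked for each of the 11 libraries, by window. Right, ratio of the summed activators to Diap1 in each library on a log axis, from TPM per gene span (filled circles) and per exon length (open squares). The bars reach 144 and 140.2 in the 14–14.5 h libraries, those of 17–17.5 h stop near 21.2, and both kinds of ratio are lowest at 17–17.5 h.

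The make-up of the activator pool differed between windows. rpr made up 52.4% ± 0.881 of the summed exon TPM at 2–4 h, 52.1% ± 0.586 at 14–14.5 h, 32.6% ± 1.95 in the 14–17 h window and 57.9% ± 2.52 in that of 17–17.5 h (SD). hid was second at 2–4 h with 31.9% ± 0.292 and made up 5.97% ± 0.0977 at 14–14.5 h, 13.1% ± 1.83 at 14–17 h and 9.49% ± 2.10 at 17–17.5 h. skl took 12.6% ± 1.15, 32.2% ± 0.856, 42.2% ± 1.42 and 24.8% ± 0.325 in these 4 windows, and grim between 3.22% and 12.1%. skl was therefore the leading activator at 14–17 h and rpr in the other windows.

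The stretch from hid to skl covers 272198 bp and holds 13 other annotated genes. Of these, 11 did not reach the count filter in any of the 4 comparisons. The other 2 are asRNA:CR45974 and lncRNA:CR45975, which lie within grim. They were called higher at 14–14.5 h than at 2–4 h (log2 fold changes 3.86 ± 0.43 and 3.59 ± 0.33, edgeR adjusted p = 3.2e-05 and 9.4e-06) and lower at 17–17.5 h than at 14–14.5 h (-2.63 ± 0.21 and -3.31 ± 0.36, edgeR adjusted p = 1.2e-04 and 4.7e-04), as grim was.

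Among all genes, those most like each activator over the 11 libraries were found by Pearson's r of log2(CPM + 1). The libraries share their windows, so these values describe the 4 levels of a gene more than 11 independent points. On log2(TPM + 1), 2 of the 3 genes were the same for grim and for skl, and 0 of 3 for rpr and for hid. For rpr they were CG15905 (r = 0.98), cib (0.97), the gene of an actin-binding protein, and CG9184 (0.97). CG9184 is listed with means of 5.84, 13.9, 1.1e-07 and 0 TPM in time order. Whether it shares reads with an overlapping gene was not tested, so the values at or near 0 need not mean absence. From the earliest window to the latest, cib had means of 35.0, 39.4, 19.9 and 14.7 TPM. For hid they included Ptr (r = 0.995), which encodes a protein related to Patched, and Wnt5 (0.99), a Wnt ligand. Wnt5 had means of 73.5, 37.4, 35.0 and 16.6 TPM in the 4 windows in time order. The gene ranked first for hid has no symbol in the tables used and is not named. grim and skl shared CG32428 (r = 0.98 with each) and Pgant3 (0.98 with each), which encodes an enzyme that starts O-linked sugar chains, beside CG14110 for grim and CG9444 for skl (0.98 each). Pgant3 had means of 14.7, 104, 40.4 and 7.17 TPM in the 4 windows.

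The other genes of the pathway were described in 9 lists of 59 genes, of which 33 overlap another annotated gene. Of the 59, 24 were called higher and 28 lower at 14–17 h than at 2–4 h, where 48.2% of all genes tested were called higher and 42.4% lower. Of the 58 tested at 17–17.5 h against 14–14.5 h, 17 were called higher and 25 lower, where 32% of all genes tested were called higher and 31.5% lower. These shares stand beside the list counts that follow, and a call by itself is no result about a list.

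The other caspases went the opposite way from Dronc, Drice and Dcp-1: all 4 were called higher at 14–17 h than at 2–4 h, where 48.2% of all genes tested were called higher. Their median log2 fold change was 2.75, against 0.19 over all genes tested. Decay, an effector-type caspase, had 1519, 1202, 1179 and 1522 counts at 14–17 h, against 9, 0 and 2 at 2–4 h. Damm rose 21.9-fold (log2 fold change 4.45 ± 0.25, edgeR adjusted p = 4.7e-08), with mean levels of 7.17 TPM at 14–17 h and 0.327 TPM at 2–4 h. Dredd, the caspase of the immune deficiency pathway, rose by 1.05 ± 0.13 and Strica by 0.39 ± 0.12 (edgeR adjusted p = 2.3e-05 and 0.0087). Between the narrow windows Damm and Strica were higher at 17–17.5 h than at 14–14.5 h (2.04 ± 0.18 and 0.99 ± 0.09, edgeR adjusted p = 1.6e-04 and 2.2e-04), whereas Decay was lower (-0.25 ± 0.07, edgeR adjusted p = 0.019). The call of Decay was lost without replicate 2 of 14–14.5 h and without replicate 1 of 17–17.5 h (-0.18 and -0.19, edgeR adjusted p = 0.07 and 0.11).

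Of the other inhibitors of apoptosis, Diap2 and Bruce, which like DIAP1 carry BIR domains, were higher at 14–17 h than at 2–4 h (log2 fold changes 0.51 ± 0.11 and 0.32 ± 0.09, edgeR adjusted p = 0.0011 and 0.0089). Det (Deterin), a BIR protein of the chromosomal passenger complex, was 18.5-fold lower (-4.21 ± 0.10, edgeR adjusted p = 4.7e-10), with means of 10.99 TPM at 14–17 h and 203 TPM at 2–4 h. In 17–17.5 h over 14–14.5 h the changes were -0.14 ± 0.05 for Diap2, 0.16 ± 0.06 for Bruce and -0.55 ± 0.48 for Det, which did not pass the test (edgeR adjusted p = 0.053, 0.058 and 0.35). Without replicate 1 of 17–17.5 h Det was called lower (-1.41, edgeR adjusted p = 0.024).

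Among mitochondrial and apoptosome genes 4 of 6 were called higher and 2 lower at 14–17 h than at 2–4 h (48.2% and 42.4% of all genes). The Bcl-2 family genes Buffy and Debcl were higher by 3.88 ± 0.17 and 1.23 ± 0.17 and Cyt-c-p, the somatic cytochrome c, by 1.02 ± 0.10 (log2, edgeR adjusted p = 1.0e-08, 5.0e-05 and 5.3e-06). Cyt-c-d, the other cytochrome c gene, had 33 to 61 counts at 14–17 h, against 0 to 2 at 2–4 h. HtrA2, a mitochondrial protease, and eIF3m, a translation factor subunit also known to act with the apoptosome, were lower (log2 fold changes -1.92 ± 0.11 and -1.74 ± 0.12, edgeR adjusted p = 4.5e-08 and 2.2e-07). Between the narrow windows 2 genes of this list were called higher and 3 lower, and Cyt-c-p was again higher (1.47 ± 0.06, edgeR adjusted p = 7.9e-06), with means of 1316 TPM at 17–17.5 h and 550.5 TPM at 14–14.5 h.

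Of the genes that act on DIAP1 turnover, morgue, eff and Ubr3 were lower at 14–17 h than at 2–4 h (log2 fold changes -0.65 ± 0.16, -0.93 ± 0.10 and -0.58 ± 0.09, edgeR adjusted p = 0.0033, 1.1e-05 and 1.9e-04). All 3 encode parts of the ubiquitin system. Prx4 (Jafrac2), a peroxiredoxin known to bind DIAP1, was not called there (0.00 ± 0.11, edgeR adjusted p = 0.98) and was lower at 17–17.5 h than at 14–14.5 h (-0.80 ± 0.10, edgeR adjusted p = 7.8e-04), while eff was higher there (0.39 ± 0.05, edgeR adjusted p = 0.0014).

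In the Hippo pathway, whose effector Yorkie is known to raise Diap1 transcription, 1 gene was called higher and 4 lower of 6 at 14–17 h than at 2–4 h. The shares of all genes tested there were 48.2% and 42.4%. The kinase gene hpo was 6.93-fold lower (-2.79 ± 0.10, edgeR adjusted p = 2.2e-09), with means of 37.4 TPM at 14–17 h and 258 TPM at 2–4 h. sd, the DNA-binding partner of Yorkie, was the gene called higher (0.85 ± 0.11, edgeR adjusted p = 2.7e-05), and yki itself was lower (-0.29 ± 0.11, edgeR adjusted p = 0.026), a call that was lost without replicate 1 or 3 of 2–4 h or replicate 2 of 14–17 h (edgeR adjusted p = 0.075, 0.073 and 0.083). Of these 6 genes, 4 were called lower at 17–17.5 h than at 14–14.5 h, among which mats, a kinase cofactor, changed most (-0.71 ± 0.06, edgeR adjusted p = 1.5e-04). Of the DNA fragmentation genes, DNaseII and Drep3 were called higher and Drep1, Drep2 and Drep4 lower at 14–17 h than at 2–4 h. Drep1, the counterpart of the inhibitor of the caspase-activated DNase, had a log2 fold change of -1.74 ± 0.12 and DNaseII, an acid nuclease, of 1.21 ± 0.12 (edgeR adjusted p = 2.1e-07 and 3.7e-06). Drep3 had 58 to 81 counts at 14–17 h, against 1, 0 and 0 at 2–4 h. Drep4, the counterpart of the caspase-activated DNase, was higher at 17–17.5 h than at 14–14.5 h (0.85 ± 0.16, edgeR adjusted p = 0.0051), where 3 of these genes were called higher and 1 lower. However, asRNA:CR44083 overlaps 60.2% of the Drep4 span, and Drep4 had only 89 to 151 counts in these windows. No sum with overlapping genes was run for it.

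Of 10 known or candidate regulators of activator transcription, 4 were called higher and 5 lower at 14–17 h than at 2–4 h (48.2% and 42.4% of all genes). Eip74EF, an ecdysone-induced transcription factor, had the largest rise, with 9.97 TPM at 14–17 h and 0.0422 TPM at 2–4 h (log2 fold change 7.86 ± 0.24, edgeR adjusted p = 9.9e-10). usp, the partner of the ecdysone receptor, is among those called lower but is listed at 0 counts in all 8 later libraries, against 252, 123 and 391 counts at 2–4 h. It lies wholly within the span of Actn, the alpha-actinin gene, which had 33327 to 46511 counts at 14–17 h and 1653 to 4528 counts at 2–4 h, so no fold change is given. Of the 9 genes tested between the narrow windows 2 were called higher and 4 lower. grh, an epidermal transcription factor and one of the epidermal markers summed above, was higher at 17–17.5 h than at 14–14.5 h (0.52 ± 0.08, edgeR adjusted p = 0.0015) and Dfd, the Hox gene known to act on rpr in the head, was lower (-0.70 ± 0.09, edgeR adjusted p = 8.3e-04).

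In the TNF and JNK pathway, 5 of 11 genes were called higher and 5 lower at 14–17 h than at 2–4 h (48.2% and 42.4% of all genes). kay, which encodes Fos, was 7.76-fold higher (2.96 ± 0.08, edgeR adjusted p = 7.6e-10) and Traf4, an adaptor, 8.46-fold lower (-3.08 ± 0.08, edgeR adjusted p = 5.5e-10). In the comparison of 17–17.5 h with 14–14.5 h, 6 were called higher and 4 lower, and the TNF receptor gene grnd was highest (1.48 ± 0.10, edgeR adjusted p = 5.7e-05) and Traf4 lowest (-1.53 ± 0.09, edgeR adjusted p = 3.0e-05).

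Of the 10 engulfment genes, through which phagocytes and glia take up dead cells, 2 were called higher and 5 lower at 14–17 h than at 2–4 h (48.2% and 42.4% of all genes). Between the narrow windows 1 was called higher and 7 lower at 17–17.5 h than at 14–14.5 h, with a median of -0.34, against -0.04 over all genes tested, of which 32% were called higher and 31.5% lower. drpr, the engulfment receptor Draper, was the gene called higher (0.46 ± 0.07, edgeR adjusted p = 0.0014), and it was also higher at 14–17 h than at 2–4 h (0.61 ± 0.09, edgeR adjusted p = 8.9e-05). NimC4, another phagocytosis receptor, is called lower but is listed at 0 counts in both 17–17.5 h libraries and in 1 of the 4 at 14–17 h. It lies wholly within nAChRalpha5, and no fold change is given. Haemocyte markers (Hml, crq, Pxn, NimC4 and srp) summed to 35.9 to 38.1 TPM at 17–17.5 h, against 52.9 to 54.9 TPM at 14–14.5 h. Of these crq and NimC4 are themselves on the engulfment list, and crq averaged 10.0 ± 1.0 TPM at 17–17.5 h and 27.3 ± 1.7 TPM at 14–14.5 h (SD, n = 2 each). The markers outside the list differed in direction, with 10.6 ± 0.5 and 0.593 ± 0.059 TPM for Hml, 12.65 ± 0.01 and 11.5 ± 0.8 TPM for srp and 3.67 ± 0.10 and 8.48 ± 0.20 TPM for Pxn, at 17–17.5 h and at 14–14.5 h. Glial markers (repo and moody) summed to 26.8 to 28.4 TPM at 17–17.5 h, against 57.3 to 58.1 TPM at 14–14.5 h. The part of these cells in the lower engulfment genes was not tested.

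**Figure D5:**
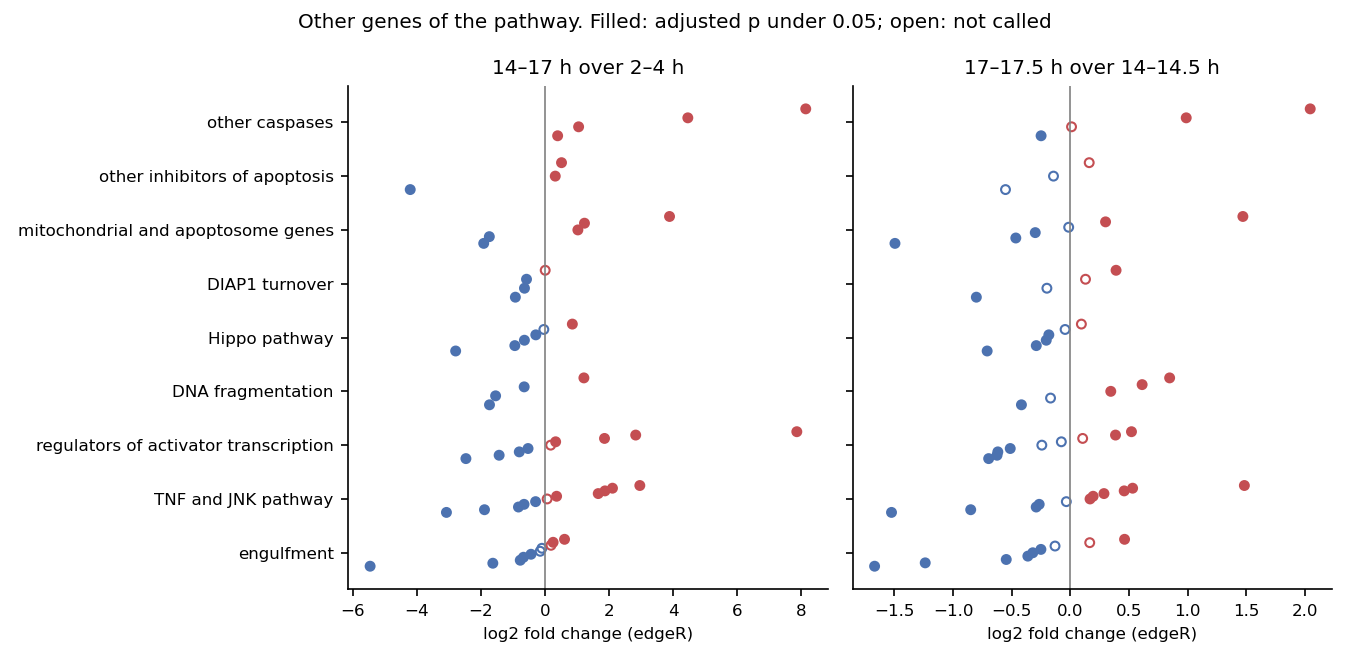
log2 fold change (horizontal axes, edgeR, on different scales in the 2 panels) of the other genes of the pathway by list, for 14–17 h over 2–4 h (left) and 17–17.5 h over 14–14.5 h (right). Filled points passed an adjusted p of 0.05, and genes with at most 3 counts in all libraries of a window together are left out of that panel. All 4 other caspases lie above 0 on the left, with Damm at 4.45.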

How the data were processed

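Bulk polyA mRNA-seq of whole Oregon-R embryos was deposited as 1 table per library. The submitters' notes name CASAVA 1.8.2, kallisto (version not given in the sources used here) and the dm6 genome. The deposited estimated counts were made by the authors with kallisto, which divides reads shared between overlapping genes, and the deposited TPM values were scaled by the authors to effective gene length and library total. The length is that of the whole gene span, introns included, for 17502 of 17625 genes found in the annotation used here (Ensembl release 115, same build). Between 19.4% and 22.2% of the estimated counts were not whole and were rounded. TPM was also recomputed over exon length from the estimated counts, with effective length taken as exon length minus 199 bases.

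Windows were compared with the quasi-likelihood test of edgeR 4.0.16 in R 4.3.3, 2-sided, with filterByExpr, TMM factors and only the libraries of both windows in the fit, and Benjamini-Hochberg adjustment over all genes tested (threshold 0.05). DESeq2 1.42.0, RLE factors, no filter, a fit of all 11 libraries, a replicate block and leaving out each library were alternatives. The comparisons of 14–17 h with the narrow windows and the sums with overlapping genes were added after the data were seen. Python 3.11.15 with pandas 2.3.3, numpy 2.4.6 and matplotlib 3.10.9 was used for tables and plots.

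Total estimated counts were between 14472809 and 38904916 per library, so 3 counts correspond to 0.0771 to 0.207 CPM. Counting limits cover counting error only, since reads carry no molecular identifiers. Replicates are described by the study as separate collections of embryos. The p-values measure the spread between them. The edgeR script was tested on simulated counts, where between 99% and 100% of 200 genes with a 4-fold change were found and between 3 and 13 other genes were called. The simulation gave every gene the same dispersion and left most genes unchanged, unlike these data. It therefore checks the script and says nothing about the calls made here. The 9 genes and the pathway lists were chosen with earlier results of these data known. Named beside the 9 genes were the genes called with the highest and lowest fold change in each list (lists of at most 6 genes in full) in 14–17 h over 2–4 h and 17–17.5 h over 14–14.5 h, the 3 genes most like each activator, and genes overlapping the 9 or lying between the activators. Promoter motifs were not searched, and no sequence is shown.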

Additional observations from a re-analysis of the deposited data

Results flagged for a closer look

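In the window with 4 libraries, 14–17 h, a single library stood apart from the other 3 in 4 of the 68 cell death and pathway genes checked, by the gap to its nearest neighbour divided by the whole range (Dixon's test at its 95% value). None of the 4 was among the activators, Diap1, Dronc, Dark, Drice or Dcp-1, and chance flags about 1 in 20 groups. Det had 2.29 CPM in its lowest library, against 2.68 to 2.76 CPM in the others. HtrA2 had 9.93 CPM in its lowest library, against 11.94 to 11.96 CPM. Drep2 had 93.1 CPM in its lowest library, against 105 to 107 CPM, and hep had 82.7 CPM in its highest library, against 79.5 to 79.7 CPM.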

How the results depend on the processing

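Of 621 values of the 9 genes under alternatives, 582 kept their direction and their side of the threshold, 13 were no longer called, 17 were newly called and 9 changed sign. For the other pathway genes 1097 of 1230 did so, with 93 no longer called, 18 newly called and 22 of the other sign. Between 17–17.5 h and 14–14.5 h the number of cell death genes called higher was 3 with RLE factors and between 0 and 2 with single libraries left out, against 1. The ratio of activators to Diap1 was 1.002, 0.937, 0.336 and 0.133 over exon length and 0.607, 0.357, 0.161 and 0.0534 in estimated counts, for the windows in time order. With overlapping genes added, grim was at 0.12 for 17–17.5 h over 2–4 h and Dcp-1 at 0.14 for 17–17.5 h over 14–14.5 h. All other changes of sign were in values near 0 that were not called. Dronc, 14–17 h over 17–17.5 h, was at -0.0089 with RLE factors, -0.0088 with DESeq2, -0.0303 with all 11 libraries and between -0.0343 and 0.0647 with single libraries left out. For 14–17 h over 2–4 h, wts was at 0.0591 with RLE factors and 0.0588 with DESeq2, Prx4 at -0.0784 and hep at -0.0185 with all 11 libraries. With single libraries left out these were between -0.126 and 0.0066 for wts, -0.0764 and 0.054 for Prx4, and -0.0578 and 0.12 for hep. For 17–17.5 h over 14–14.5 h, eIF3m was at 0.0186 with RLE factors and DESeq2, and leaving out libraries gave -0.0532 to 0.0194 for eIF3m, -0.0135 to 0.0781 for Dredd, -0.0374 to 0.251 for hpo, -0.0826 to 0.0267 for sd, -0.173 to 0.0192 for Abd-B and -0.0704 to 0.0456 for wgn. The cause of these changes was not tested.

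Replicate numbers did not pair the libraries of 14–17 h and 2–4 h: same-numbered libraries had correlations of their deviations of 0.0599, -0.0528 and 0.0914. For 17–17.5 h and 2–4 h these were 0.202 and 0.0635, and for 14–17 h and 17–17.5 h 0.00142 and -0.257. In a window of 2 libraries the deviations are equal and opposite, so the check cannot decide on pairing there. With the replicate block, the genes called lower at 14–14.5 h than at 2–4 h numbered 4, against 5, without Dark (-0.41, edgeR adjusted p = 0.05). Those called lower at 17–17.5 h than at 14–14.5 h numbered 6, against 5, with Drice added (-0.42, edgeR adjusted p = 0.04), and those called higher at 14–17 h than at 17–17.5 h numbered 3, against 4, without Drice (0.46, edgeR adjusted p = 0.057). With the block, Dronc was at -0.0766 for 14–17 h over 17–17.5 h and Prx4 at -0.0456 for 14–17 h over 2–4 h.

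The limits are few libraries (2 in each narrow window), the sets of libraries that differ in mt:lrRNA, and the unknown use of strand in counting. Low counts limit grim at 2–4 h (35 to 89 counts). A search of promoter motifs was not run.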
